A study of Homo sapiens with 12 samples.

Results

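The comparison described here sets the response of MG63 cells to anticarin-beta against their response to an siRNA directed at CCT4. MG63 is an established human osteosarcoma line. The contrast takes the log2 fold change of anticarin-beta over its vehicle and subtracts the log2 fold change of CCT4 siRNA over control siRNA, and it uses 12 of the 12 RNA-seq libraries of the series. The 4 groups hold 3 libraries each: vehicle, 1 µM anticarin-beta with collection at 18 hours, Allstar control siRNA, and CCT4-specific siRNA with collection 2 days after transfection. All cells were grown in the same regular medium with serum. The sources used here give no siRNA sequence, number or dose. Duration, delivery and control differ between the experiments along with the treatment, and these cannot be told apart from it in the contrast.

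CCT4 is a subunit of the chaperonin TRiC, or CCT, a barrel of paralogous subunits in the cytosol that folds newly made actin, tubulin and other proteins. The series sets a compound beside an siRNA against 1 of these subunits in the same cell line. Subtracting the responses sorts genes into those that moved alike, those that moved in opposite directions and those that moved under 1 treatment alone.

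Read counts were scaled to library size as CPM with TMM factors, so levels are compared between libraries for the same gene and not between genes, whose lengths differ. Library totals ran from 13393750 to 17492095 counts, and 3 counts, the floor of detection, corresponded to 0.172 to 0.224 CPM. The mesenchymal markers VIM (2080 to 3620 CPM) and COL1A1 (560 to 4240 CPM) were high in the 12 libraries, scaled by library totals. RUNX2 ranged from 2.27 to 27.3 CPM and TWIST1 from 6.11 to 20.1 CPM. CD3E had no count, and EPCAM and CDH1 reached at most 4 and 2 counts. Other epithelial and leukocyte markers were detected: KRT8 (34.2 to 59.2 CPM), KRT18 (74.8 to 106), CD14 (7.01 to 16.1) and CD68 (14.8 to 96.2). The labels do not say that replicates came from separate cultures, so every p-value reflects the spread among these libraries and no more. In bulk RNA, fewer cells of a type and less RNA per cell cannot be told apart. The controls themselves differed: 48.4% of genes were called between control siRNA and vehicle, so levels in all 4 groups are given for the genes that the results turn on.

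The targeted gene did not fall in the libraries labelled CCT4 siRNA. CCT4 stood at 258, 238 and 212 CPM with vehicle, 86.8, 87.5 and 72.5 with anticarin-beta, 186, 160.2 and 185 with control siRNA and 201, 199.6 and 216 with CCT4 siRNA. The CCT4 siRNA libraries were all above the control siRNA libraries, with a log2 fold change of 0.22 ± 0.09 (SE, n = 3 per group) and an adjusted p of 0.129 in edgeR's quasi-likelihood test with Benjamini-Hochberg adjustment. The anticarin-beta libraries were all below the vehicle libraries, at -1.52 ± 0.10 (adjusted p = 1.84e-08). The difference of the responses was -1.74 ± 0.13 (95% interval -2.03 to -1.45, adjusted p = 2.78e-07). The siRNA response therefore refers to libraries labelled CCT4 siRNA, in which a lower CCT4 transcript level was not seen. CCT4 shares exon bases with genes on the opposite strand, and the sources used here do not say whether counting used strand.

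Of 17717 genes tested, 12926 (73.0%) were called at an adjusted p under 0.05 with anticarin-beta and 3493 (19.7%) with CCT4 siRNA. The median absolute log2 fold change was 0.94 against 0.25. With anticarin-beta 6186 genes (34.9%) were higher and 6740 (38.0%) lower, and with CCT4 siRNA 1892 (10.7%) were higher and 1601 (9.04%) lower. The difference of the responses was called for 10610 genes (59.9%): 4866 (27.5%) were higher and 5744 (32.4%) lower with the compound relative to the siRNA. Of these, 7074 differed by more than 2-fold. Scaled by library totals in place of TMM, the split was 3724 higher and 7283 lower, 33.8% higher against 45.9%, and the median difference of all genes moved from -0.09 to -0.38.

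Most genes called with the siRNA were also called with the compound, but so were 73.0% of all genes tested. The lists have separate control libraries and shared 2901 genes. These were 83.1% of the siRNA calls, beside 73.0% of all genes called with the compound. They were 22.4% of the compound calls, beside 19.7% of all genes called with the siRNA. Of the genes higher with CCT4 siRNA, 63.3% were higher and 18.9% lower with anticarin-beta, and of those lower with the siRNA, 65.3% were lower and 18.9% higher. Background shares for these directions are the 34.9% higher and 38.0% lower with the compound over all genes. The classes were 1197 shared higher genes (6.76% of those tested), 1045 shared lower (5.90%), 302 opposite genes that were higher with the compound and lower with the siRNA (1.70%), and 357 opposite genes in the reverse pattern (2.02%). A gene was called compound-specific when the compound response and the difference passed the test, the siRNA response did not, and its 95% interval lay within 1.5-fold either way: 2113 such genes were higher (11.9%) and 2558 lower (14.4%). When each response was tested against a 1.5-fold threshold, 97 shared higher, 33 shared lower, and 4 and 3 opposite genes were left. This test also drops changes above 1.5-fold whose error is too large. The median siRNA log2 fold change was 0.47 in the shared higher and -0.60 in the shared lower genes. It was -0.46 in the opposite genes higher with the compound and 0.38 in those lower with it. On leaving out replicate 1 or 2 of control siRNA, or any 1 CCT4 siRNA library, the shared lower genes numbered 667 to 694 and the opposite genes lower with the compound 184 to 210. On leaving out replicate 1 or 2 of either siRNA group, the other opposite genes numbered 192 to 201. By the rule for compound-specific genes, 164 genes were siRNA-specific higher (0.926%) and 102 lower (0.576%). Across genes the responses had a Pearson correlation of 0.33 (Spearman 0.33) over 17717 genes, which are not independent replicates, and 0.34 (Spearman 0.31) over the 9839 genes that averaged 10 CPM or more.

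**Figure D1:**
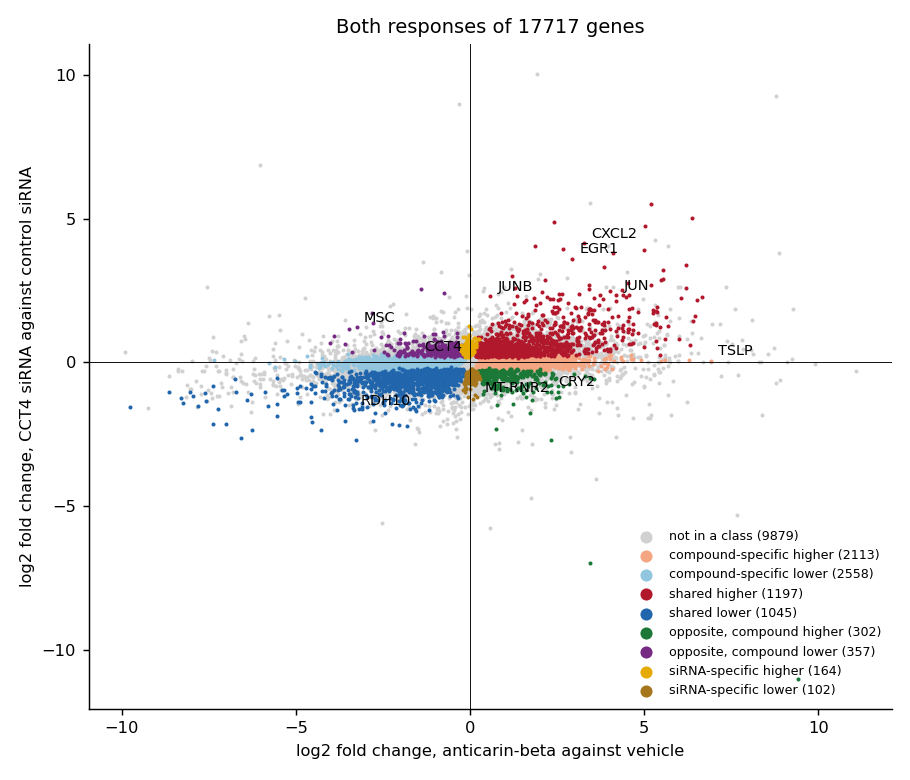
Each point is 1 of 17717 genes, with its log2 fold change for anticarin-beta against vehicle on the horizontal axis and for CCT4 siRNA against control siRNA on the vertical axis; colours mark the classes, with the number of genes in each. The compound axis is spread more widely, and the 1197 shared higher and 1045 shared lower genes fill the upper right and lower left quadrants.

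Among the 2242 shared genes the compound response was larger in 1410, the siRNA response was larger in 33 (0.186% of all genes tested), and the difference was not called in 799. Of those 33, 22 were higher and 11 lower with both treatments. They include JUNB, JUND and EGR1, transcription factors of the immediate-early response, and the chemokine CXCL2. Immediate-early genes are switched on within minutes of a stimulus without new protein synthesis, and JUN and FOS family members form the dimer AP-1.

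JUNB stood at 347, 360.5 and 342 CPM with vehicle, 576, 496 and 499 with anticarin-beta, 416, 391 and 427 with control siRNA and 2114, 2037 and 1936 with CCT4 siRNA. Every treated library exceeded its controls, but the siRNA libraries stood far above those with the compound. The log2 fold change was 2.30 ± 0.07 with the siRNA and 0.58 ± 0.07 with the compound, a difference of -1.72 ± 0.10 (adjusted p = 2.38e-08). EGR1 stood at 12.2, 23.0 and 21.7 CPM with vehicle, 139, 141 and 154 with anticarin-beta, 29.8, 27.3 and 31.1 with control siRNA and 386, 355 and 342 with CCT4 siRNA. EGR1 rose by 3.62 ± 0.17 with the siRNA and 2.93 ± 0.17 with the compound. The difference of -0.69 ± 0.24 (adjusted p = 0.026) depends on single libraries: the adjusted p was 0.065 without vehicle replicate 2, 0.0696 without vehicle replicate 3, 0.0581 without control siRNA replicate 2 and 0.0558 without CCT4 siRNA replicate 1.

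CXCL2 stood at 6.77, 5.91 and 8.82 CPM with vehicle, 60.4, 71.2 and 77.3 with anticarin-beta, 13.5, 13.7 and 13.8 with control siRNA and 239.7, 241 and 254 with CCT4 siRNA. The siRNA libraries were the highest of the 12 and the groups of each experiment did not overlap. Its log2 fold change was 4.16 ± 0.12 with the siRNA, 3.28 ± 0.13 with the compound, and the difference -0.89 ± 0.18 (adjusted p = 0.000796). JUND also rose further with the siRNA (2.03 ± 0.11 against 1.27 ± 0.11, adjusted p of the difference 0.000915). JUN, the partner of FOS in AP-1, went the other way: JUN stood at 163, 181 and 182 CPM with vehicle, 3421, 3129 and 3179 with anticarin-beta, 475, 432 and 471 with control siRNA and 2416, 2295 and 2251 with CCT4 siRNA. It rose by 4.21 ± 0.07 with the compound and 2.34 ± 0.07 with the siRNA, and the difference of 1.87 ± 0.10 was called at 9.32e-09.

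The promoters of CXCL2 and EGR1 are shown because these genes led the shared higher class, a choice made after their values were seen. Sequences are from RefSeq on GRCh38.p14, written 5′ to 3′ on the gene's strand, upstream of the annotated start. Capitals mark the NF-kB consensus in CXCL2, which begins 78 bases before the start, and the SRF CArG boxes in EGR1, which begin 105 and 83 bases before it.
CXCL2, chr4:74099236-74099305, minus strand: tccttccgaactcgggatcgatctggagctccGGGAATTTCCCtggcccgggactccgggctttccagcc
EGR1, chr5:138465359-138465418, plus strand: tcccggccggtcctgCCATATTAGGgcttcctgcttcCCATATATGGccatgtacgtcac

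Promoters of 11930 tested genes could be matched by symbol, and letters were sought on both strands in the 250 bases before the start. The NF-kB consensus was present in 12.9% of 828 shared higher promoters and 11.7% of all, and the CArG box in 1.57% against 0.997%. The AP-1 letters TGACTCA stood in 4.47% of shared higher, 1.02% of shared lower and 2.95% of all promoters, and the TATA letters TATAAA in 10.3%, 3.94% and 5.89%. A match describes letters and not a bound site.

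The immediate-early list was shared in the main. Of 26 genes tested, 23 were higher with the compound and 19 with the siRNA, none was lower in either, and 19 were higher in both. Their median log2 fold change was 2.62 with the compound and 0.96 with the siRNA, beside -0.06 and 0.01 over all genes. The difference was called higher in 17 and lower in 3, the latter being JUNB, JUND and EGR1. Scaled by library totals, the list had 22 higher and 1 lower with the compound, 17 and 1 with the siRNA, and 17 and 3 for the difference. List counts are read against all genes: 34.9% higher and 38.0% lower with the compound, 10.7% and 9.04% with the siRNA. For the difference these shares are 27.5% and 32.4%. By library totals, 4292 of 17717 genes were higher and 8959 lower with the compound, and 902 and 2800 with the siRNA. There the difference was higher in 3724 genes and lower in 7283. FOSL2, an AP-1 subunit, was compound-specific: FOSL2 stood at 168, 173 and 187 CPM with vehicle, 1081, 1069 and 1032 with anticarin-beta, 237, 232 and 256 with control siRNA and 280, 265 and 248 with CCT4 siRNA. Its siRNA interval of -0.02 to 0.27 lay inside the 1.5-fold bound, and the difference was 2.46 ± 0.10 (adjusted p = 1.53e-09). IER5 and FOSL1 rose with both, by 2.65 and 3.31 with the compound against 0.40 and 0.49 with the siRNA.

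NF-kB is a transcription factor that drives chemokine, cytokine and feedback inhibitor genes. Of 29 NF-kB and inflammatory genes, 26 were higher and 1 lower with the compound, 22 were higher and none lower with the siRNA, and 21 were shared higher. The medians were 2.45 and 0.80, and the difference was called higher in 22 and lower in 3; by library totals there were 24 higher and 1 lower with the compound, 21 and 1 with the siRNA, and 21 and 3 for the difference. The cytokine gene LIF shows how the controls enter the contrast: LIF stood at 73.4, 98.4 and 105 CPM with vehicle, 1141, 1084 and 1030 with anticarin-beta, 979.5, 982 and 1072 with control siRNA and 1612, 1587 and 1517 with CCT4 siRNA. Its anticarin-beta libraries overlapped the control siRNA libraries while vehicle had a mean of 92.2 CPM, and the difference was 2.92 ± 0.15 (adjusted p = 1.10e-08). The chemokine CXCL8 had means of 508, 12480, 5081 and 7965 CPM in the order vehicle, compound, control siRNA and CCT4 siRNA, and a difference of 3.97 ± 0.21.

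The NF-kB subunit gene NFKB2 rose with both treatments (2.35 and 0.49), and the interleukin gene IL1B was compound-specific (3.08, with -0.02 for the siRNA). The inhibitor gene NFKBIA, picked out after its values were seen, was siRNA-specific: NFKBIA stood at 32.2, 32.6 and 35.9 CPM with vehicle, 44.2, 36.8 and 38.5 with anticarin-beta, 153, 153 and 106 with control siRNA and 236, 239.8 and 248 with CCT4 siRNA. The compound response of 0.25 ± 0.13 was not called (adjusted p = 0.104), the siRNA response was 0.81 ± 0.12, and the difference -0.57 ± 0.18 (adjusted p = 0.0155). The related genes NFKBID and BCL3 were also siRNA-specific, at 1.28 ± 0.20 and 0.90 ± 0.08 with the siRNA against -0.04 ± 0.21 and -0.15 ± 0.08 with the compound. Both share exon sequence with another gene on the same strand, so their counts are uncertain.

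**Figure D2:**
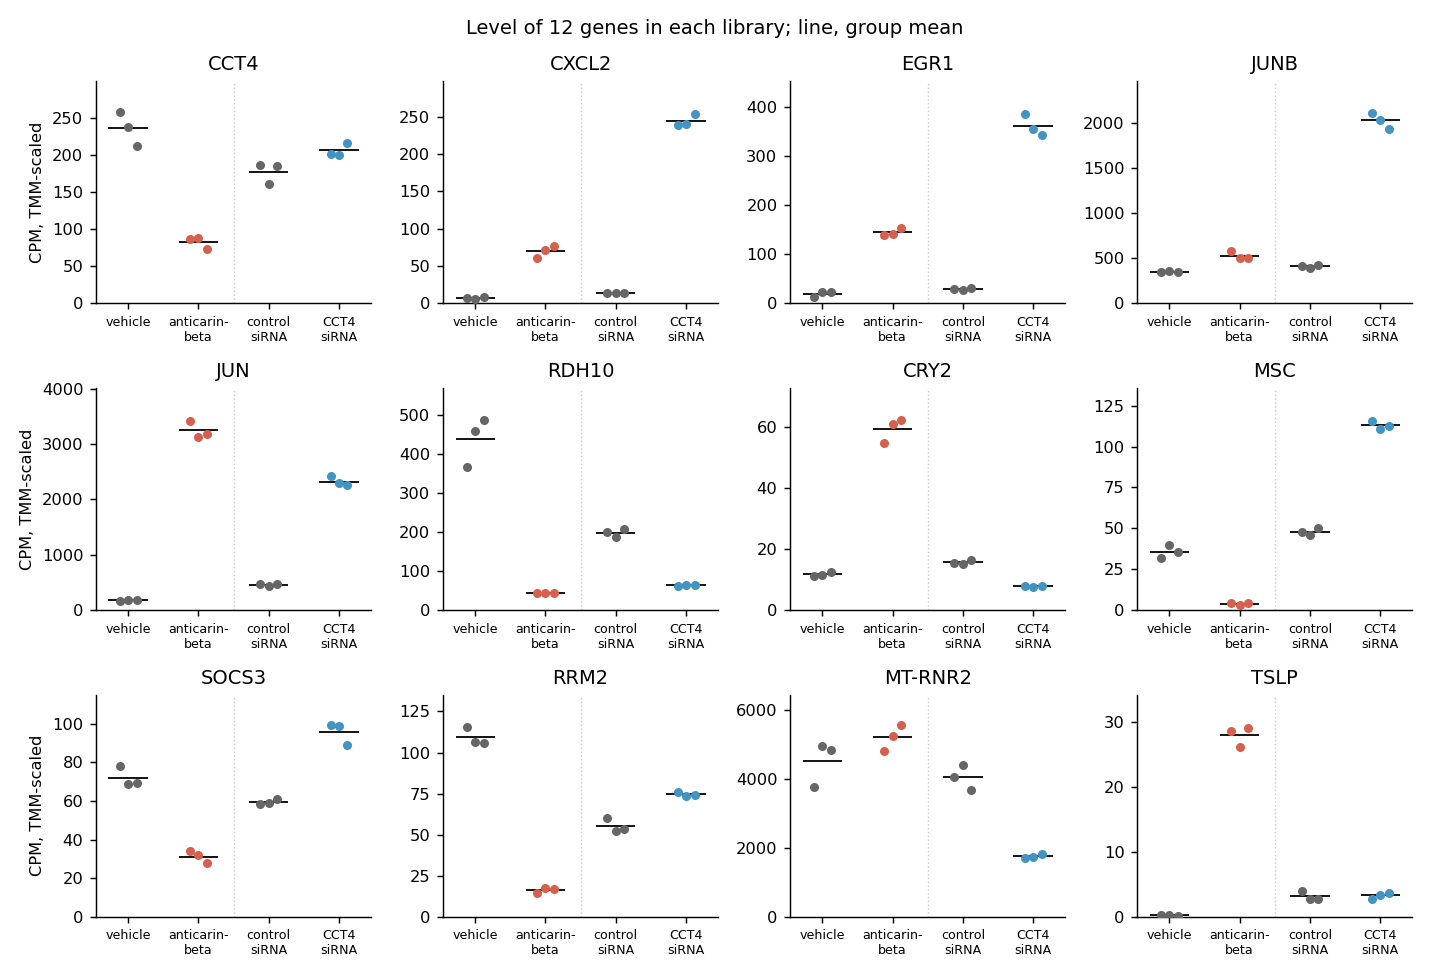
Level in CPM of 12 genes (vertical axes, each from 0) in the 3 libraries of each group, shown as points with the group mean as a line. CXCL2, EGR1 and JUNB are highest with CCT4 siRNA, JUN with anticarin-beta, CRY2 rises with the compound and falls with the siRNA, MSC, SOCS3 and RRM2 do the reverse, and MT-RNR2 falls with the siRNA alone.

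Other shared higher genes with large changes in both were EFCAB12 and LINC00641. EFCAB12 stood at 0.746, 0.724 and 0.962 CPM with vehicle, 14.9, 19.7 and 20.2 with anticarin-beta, 2.24, 1.52 and 0.835 with control siRNA and 8.63, 6.39 and 7.52 with CCT4 siRNA. Its control levels were low and its treated libraries were all higher. LINC00641, a long non-coding RNA gene, went from a mean of 10.2 to 121 CPM with the compound and from 4.63 to 21.8 with the siRNA.

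Shared lower genes were led by RDH10, a retinol dehydrogenase gene. RDH10 stood at 368, 459.7 and 486 CPM with vehicle, 42.2, 43.4 and 43.8 with anticarin-beta, 201, 186 and 206 with control siRNA and 61.9, 62.9 and 64.2 with CCT4 siRNA. Treated libraries lay below their controls in both experiments, at -3.34 ± 0.09 and -1.65 ± 0.09, and the difference was -1.69 ± 0.13 (adjusted p = 2.47e-07). PALB2, whose protein links BRCA1 and BRCA2 in DNA repair, fell by 2.45 and 1.47 on the log2 scale: PALB2 stood at 25.6, 22.8 and 22.9 CPM with vehicle, 6.29, 2.77 and 3.85 with anticarin-beta, 24.9, 26.4 and 22.8 with control siRNA and 8.50, 8.79 and 9.45 with CCT4 siRNA. The vehicle and control siRNA libraries were at similar levels here. PARS2, a mitochondrial prolyl-tRNA synthetase gene, fell from 6.94 to 1.23 CPM and from 7.87 to 2.93 CPM. ASB13 fell to a mean of 0.112 CPM with the compound, where the libraries had 3 counts or fewer, and from 10.7 to 3.74 CPM with the siRNA. ZNF436-AS1 and AGGF1 fell in both as well (-2.28 and -1.40, -4.93 and -1.38), with exons shared with another gene on their strand.

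HJURP, a chaperone of the centromeric histone, and SRGAP2B were lower in both and further with the siRNA. HJURP stood at 91.2, 72.6 and 68.0 CPM with vehicle, 55.4, 61.6 and 65.3 with anticarin-beta, 77.3, 69.0 and 77.5 with control siRNA and 29.2, 33.5 and 33.0 with CCT4 siRNA. The compound change of -0.35 ± 0.11 was small, with an adjusted p of 0.0647 without vehicle replicate 1 and 0.0543 without anticarin-beta replicate 1, against -1.22 ± 0.11 with the siRNA. SRGAP2B, which has near-identical copies in the genome and is uncertain for that reason, changed by -0.36 ± 0.08 and -1.18 ± 0.08.

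Most transcripts of the mitochondrial genome were lower with both treatments. The 13 protein-coding genes, which encode subunits of the respiratory chain and ATP synthase, were all lower with the compound, 11 were lower with the siRNA, and the difference was lower in all 13 (median -2.15, -0.64 and -1.65). MT-ND4 stood at 6035, 6290 and 5918 CPM with vehicle, 821, 898 and 949 with anticarin-beta, 2738, 2801 and 2671 with control siRNA and 1579, 1567 and 1575 with CCT4 siRNA. The 4 groups did not overlap, although MT-ND4 shares bases with MT-ND4L. The siRNA change was small for MT-CYB (-0.20 ± 0.06) and had an adjusted p of 0.0447; the call did not hold on leaving out replicate 2 of anticarin-beta, any 1 control siRNA library or any 1 CCT4 siRNA library (adjusted p from 0.0555 to 0.149). MT-ND3 fell by 3.34 with the compound and 0.83 with the siRNA on the log2 scale.

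The ribosomal RNAs of the same genome did not follow. MT-RNR2 stood at 3778, 4951 and 4834 CPM with vehicle, 4810, 5258 and 5566 with anticarin-beta, 4053, 4416 and 3684 with control siRNA and 1716, 1738 and 1835 with CCT4 siRNA. The siRNA libraries were all below their controls (-1.20 ± 0.10, adjusted p = 1.70e-05), the compound libraries overlapped the vehicle libraries (0.20 ± 0.10, adjusted p = 0.0905), and the difference was 1.41 ± 0.15 (adjusted p = 3.66e-06). MT-RNR1, the other rRNA gene, was chosen after its values were seen: MT-RNR1 stood at 489, 522 and 496 CPM with vehicle, 1259, 1397 and 1497 with anticarin-beta, 684, 682 and 536 with control siRNA and 331, 355 and 361 with CCT4 siRNA. It rose with the compound (1.46 ± 0.09) and fell with the siRNA (-0.86 ± 0.10). Under the siRNA the rRNAs and most of the mRNAs were lower, and under the compound the mRNAs alone were.

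For nuclear genes of the same organelle, counts with the compound are read against the 38.0% of all genes that were lower and 34.9% that were higher, those with the siRNA against 9.04% and 10.7%, and those of the difference against 32.4% and 27.5%. Of 33 nuclear respiratory chain genes, 15 were lower and 5 higher with the compound while 10 were higher and 1 lower with the siRNA, and the difference was lower in 21 and higher in 1. By library totals these counts were 1 higher and 27 lower with the compound, 5 and 1 with the siRNA, and 0 and 27 for the difference. NDUFB10, a complex I subunit gene, had a compound response of -2.57 ± 0.15 and an siRNA response of 0.28 ± 0.14 that was not called. Of 47 mitochondrial ribosomal protein genes, 30 were lower and 4 higher with the compound, 3 lower and 6 higher with the siRNA, and the difference was lower in 32 and higher in 4. By library totals there were 3 higher and 42 lower with the compound, 1 and 7 with the siRNA, and 3 and 37 for the difference. By the TMM fit 21 of them were compound-specific lower, MRPS11 (-2.12 against 0.21) and MRPL18 (-2.47 against 0.14) among them.

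The chaperonin subunit genes were lower with the compound, with exceptions, and none was lower with the siRNA. Of 9 subunit genes, 7 were lower and 2 higher with anticarin-beta (38.0% and 34.9% of all genes), 3 were higher and none lower with CCT4 siRNA, and the difference was lower in 6 and higher in none (medians -0.65, 0.26 and -0.94), while by library totals no subunit was called higher with either treatment and the difference was lower in 6. CCT3 stood at 434, 399 and 373 CPM with vehicle, 138, 126 and 127 with anticarin-beta, 289.6, 297 and 283 with control siRNA and 360.2, 362 and 336 with CCT4 siRNA. The compound libraries were the lowest of the 12 and the siRNA libraries exceeded their controls, giving -1.62 ± 0.07 and 0.28 ± 0.07, a called difference of -1.91 ± 0.10 (adjusted p = 8.80e-09). CCT6A had the largest difference of the list, -2.18 ± 0.16 (adjusted p = 1.94e-07), from -1.92 ± 0.11 with the compound and 0.26 ± 0.11, not called, with the siRNA. TCP1, the alpha subunit gene, fell with the compound (-0.65 ± 0.09) and rose with the siRNA (0.29 ± 0.09), and CCT7 had a difference of -0.92 ± 0.19 and CCT8 one of -0.39 ± 0.11. The compound call of CCT8 (-0.21 ± 0.08) was weak, with an adjusted p of 0.109 by RLE scaling, 0.128 with DESeq2, 0.0604 with a replicate block and 0.0741 with each experiment fitted alone, and the call did not hold on leaving out replicate 1 of vehicle or replicate 1 or 2 of anticarin-beta (adjusted p from 0.0542 to 0.111). CCT2 was higher in both (0.45 ± 0.10 and 0.38 ± 0.10). CCT5 was higher with the compound (0.39 ± 0.08) and not called with the siRNA (0.22 ± 0.08, adjusted p = 0.0609). CCT6B was near the floor, at means of 1.08, 0.402, 0.554 and 0.473 CPM. Its compound call had an adjusted p of 0.0542 with DESeq2 and 0.0778 with limma-voom, and the call did not hold on leaving out replicate 2 or 3 of vehicle or any 1 anticarin-beta library (adjusted p from 0.058 to 0.108). The siRNA calls were weak: by library totals the adjusted p was 0.157 for CCT3, 0.244 for TCP1 and 0.108 for CCT2. For CCT3 the call did not hold on leaving out replicate 2 of CCT4 siRNA (adjusted p = 0.0518), for CCT2 the call did not hold on leaving out replicate 1 or 2 of control siRNA or replicate 3 of CCT4 siRNA (adjusted p from 0.051 to 0.0643), and for TCP1 the call did not hold on leaving out any 1 anticarin-beta library, replicate 1 or 3 of control siRNA or any 1 CCT4 siRNA library (adjusted p from 0.0543 to 0.139). TCP1 shares exon sequence with another gene on its strand.

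Genes of actin and tubulin, the best known chaperonin substrates, moved in both directions with the compound. Of 15 genes, 7 were lower and 3 higher with the compound, beside 38.0% and 34.9% of all genes. With the siRNA 5 were higher and none lower, the difference was lower in 7 and higher in 1 (32.4% and 27.5% of all), and by library totals the counts were 0 higher and 9 lower with the compound, 3 and 0 with the siRNA, and 0 and 8 for the difference. TUBB stood at 1660, 1573 and 1509 CPM with vehicle, 431, 429 and 443 with anticarin-beta, 987, 998 and 994 with control siRNA and 1141, 1174 and 1168 with CCT4 siRNA. This beta-tubulin gene fell with the compound (-1.86 ± 0.05) and was slightly higher in every siRNA library (0.23 ± 0.05, adjusted p = 0.0122, 0.264 by library totals). TUBG1, of gamma-tubulin, was compound-specific (-2.70 ± 0.11 against 0.06 ± 0.10). TUBA1A and beta-actin ACTB had differences of -0.79 ± 0.13 and -1.20 ± 0.20. The siRNA response of ACTB was not called (0.41 ± 0.14, adjusted p = 0.0588).

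Chaperonin partners were mixed. Among 8 tested genes of prefoldin, which hands substrates to the barrel, and of phosducin-like co-chaperones, 5 were higher and 2 lower with the compound, 2 higher and none lower with the siRNA, and the difference was higher in 3 and lower in 3, beside 27.5% and 32.4% of all genes. By library totals there were 2 higher and 3 lower with the compound, 0 and 0 with the siRNA, and 1 and 3 for the difference. PDCL3 had a difference of -3.01 ± 0.24 and PDCL of -1.03 ± 0.15, while PFDN2 and PFDN5 had 1.05 ± 0.12 and 0.67 ± 0.16, the last with an adjusted p of 0.065 by library totals. Of 26 heat-shock genes, 10 were higher and 13 lower with the compound, beside 34.9% and 38.0% of all genes. With the siRNA 5 were higher and 2 lower, beside 10.7% and 9.04% of all. By library totals there were 5 higher and 15 lower with the compound, 0 and 4 with the siRNA, and 6 and 14 for the difference. The constitutive HSP70 gene HSPA8 fell from 1353, 1368 and 1107 to 260.3, 332 and 347 CPM with the compound and stood at 859.7, 810 and 663 and 874, 926 and 886 CPM in the siRNA experiment, where no change was called (0.20 ± 0.12). HSP90AA1 was compound-specific lower (-1.10), HSF2 compound-specific higher (2.08), and the small heat-shock gene HSPB8 was higher in both (1.29 and 0.28, the latter with an adjusted p of 0.0887 by library totals). HSPA8 shares exon bases with other genes on its strand.

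**Figure D3:**
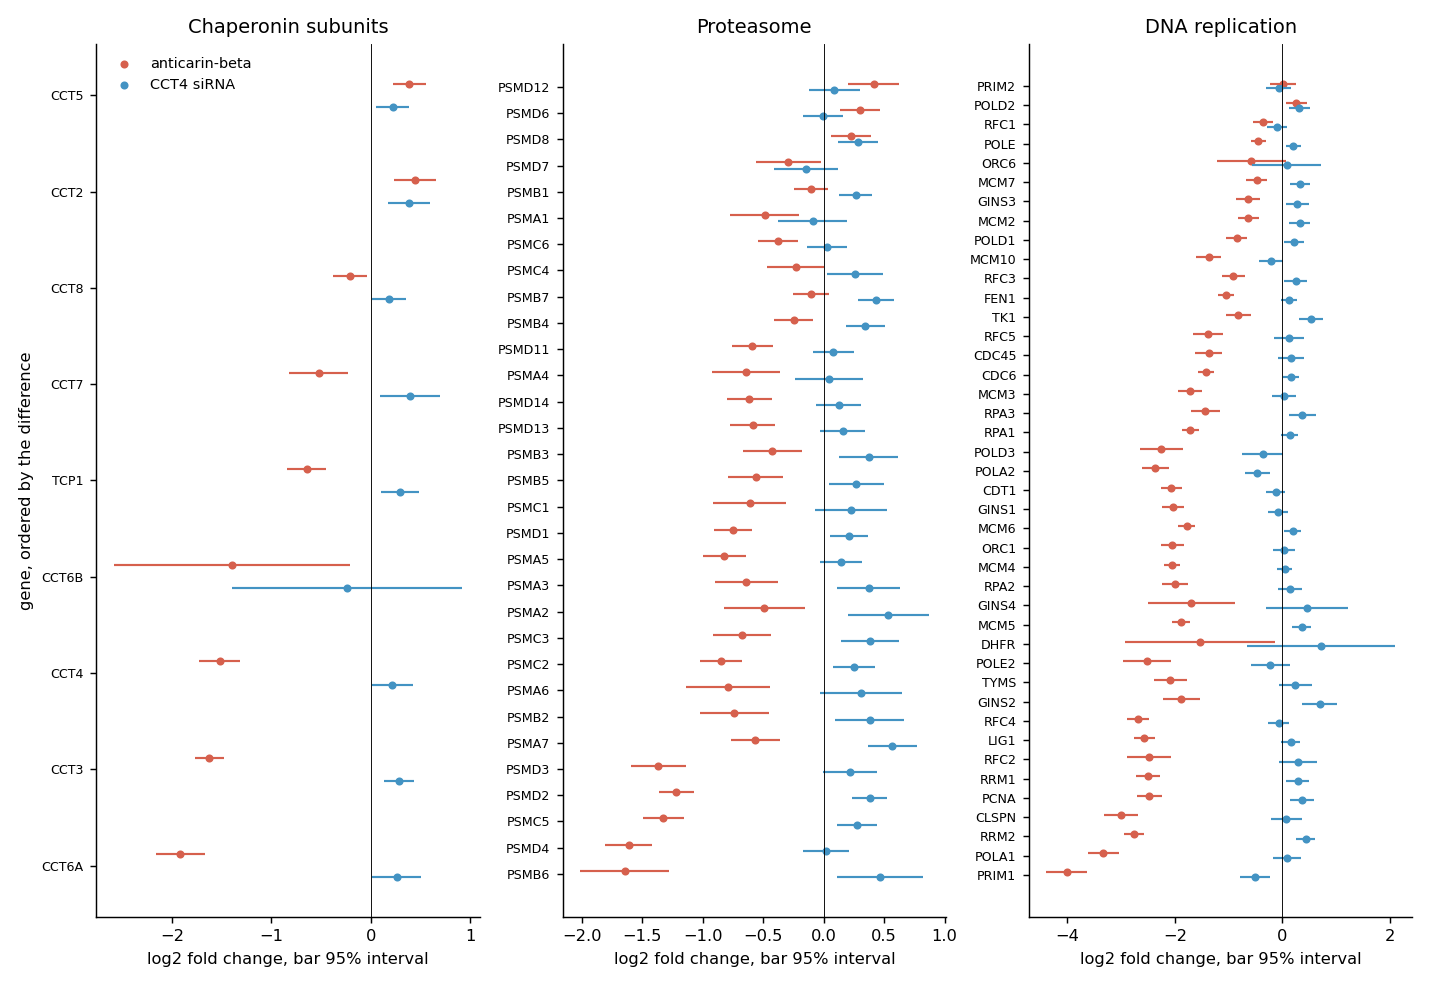
Log2 fold change (horizontal axes) of each chaperonin subunit, proteasome and DNA replication gene with anticarin-beta against vehicle and with CCT4 siRNA against control siRNA; bars are 95% intervals and genes are ordered by the difference. With the compound 7 of 9, 25 of 31 and 39 of 42 genes were called lower. With the siRNA 3, 12 and 10 were called higher and 0, 0 and 2 lower.

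The proteasome, which degrades ubiquitin-tagged proteins, gave a nearly uniform difference. Of 31 subunit genes the difference was lower in 26 and higher in 1, against 32.4% and 27.5% of all genes. With the compound 25 were lower and 3 higher, with the siRNA 12 were higher and none lower, and 9 were opposite. PSMD2 stood at 406, 376 and 382 CPM with vehicle, 161, 168 and 171 with anticarin-beta, 345, 372 and 404 with control siRNA and 492, 497 and 474 with CCT4 siRNA. The compound libraries were below and the siRNA libraries above every control library of their experiment, with -1.22 ± 0.07 and 0.38 ± 0.07 (adjusted p of the difference 2.64e-08). PSMC5, an ATPase subunit gene, had -1.32 ± 0.08 and 0.28 ± 0.07, and for the siRNA the call did not hold on leaving out replicate 1 or 2 of control siRNA or replicate 2 or 3 of CCT4 siRNA (adjusted p from 0.0551 to 0.0927), while PSMD4 and PSMD3 were compound-specific (-1.61 and -1.37). By library totals the siRNA calls fell to 3 and the opposite genes to 3, with the difference lower in 29.

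Ribosomal protein genes were higher with the siRNA and mixed with the compound. Of 76 genes, 52 were higher and none lower with the siRNA (median 0.39), beside 10.7% and 9.04% of all genes. With the compound 30 were higher and 15 lower (median 0.15), beside 34.9% and 38.0% of all. The higher count with the compound lay near its share. The list held 22 shared higher, 12 opposite and 12 siRNA-specific higher genes. The difference was lower in 29 (38.2%) and higher in 4 (5.26%), beside 32.4% and 27.5% of all. RPL13A had 836, 850 and 746 CPM with vehicle, 632, 569 and 554 with the compound, 524, 519 and 566 with control siRNA and 817, 736 and 777 with CCT4 siRNA, a fall of 0.47 and a rise of 0.53 on the log2 scale. RPL7 and RPL5 had differences of -1.21 ± 0.11 and -0.86 ± 0.10. By library totals 30 genes were higher with the siRNA and 4 higher and 43 lower with the compound, so the shared higher group depended on the scaling. Processed pseudogenes are numerous in this family, RPL13A and RPL5 have exon overlaps on their strand, and the sources used here do not say how reads that map to several places were counted.

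By the TMM fit, few genes that build ribosomes or charge tRNAs were called with the siRNA, beside 19.7% of all genes. With the compound 34.9% of all genes were higher and 38.0% lower. Among 29 ribosome biogenesis genes, 15 were higher and 10 lower with the compound and 1 higher and 1 lower with the siRNA. By library totals there were 11 higher and 13 lower with the compound, 1 and 3 with the siRNA, and 12 and 10 for the difference. RRP12 was compound-specific higher (2.60 ± 0.09 against 0.20 ± 0.09) and WDR12 and UBTF compound-specific lower (-2.68 and -1.29). RRN3, a cofactor of RNA polymerase I, was higher (1.26). POLR1B, the gene of the second largest subunit of that polymerase, was siRNA-specific: POLR1B stood at 43.7, 29.3 and 30.3 CPM with vehicle, 31.9, 31.1 and 30.5 with anticarin-beta, 50.4, 57.3 and 54.1 with control siRNA and 22.9, 27.6 and 28.2 with CCT4 siRNA. The siRNA libraries were all lower (-1.04 ± 0.14), and the compound response was -0.14 ± 0.14 (adjusted p = 0.369). Of 20 cytosolic tRNA synthetase genes, 9 rose and 9 fell with the compound and none was called with the siRNA, or 5 higher and 12 lower with the compound, 0 and 4 with the siRNA, and 6 and 12 for the difference by library totals. FARSB and QARS fell (-3.34 and -2.42), GARS and TARS rose (1.49 and 1.33), and their siRNA responses lay between -0.14 and 0.06.

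DNA replication genes had the lowest median difference of the 41 lists. Of 42 genes, 39 were lower and 1 higher with the compound (median -1.75), beside 38.0% and 34.9% of all genes. With the siRNA 10 were higher and 2 lower (median 0.15), beside 10.7% and 9.04% of all. The difference was lower in 38 and higher in none (median -1.92), beside 32.4% and 27.5% of all. RRM2 encodes a subunit of ribonucleotide reductase, which makes deoxynucleotides. RRM2 stood at 116, 106 and 106 CPM with vehicle, 14.4, 17.3 and 16.8 with anticarin-beta, 60.1, 52.0 and 53.5 with control siRNA and 76.1, 73.6 and 74.2 with CCT4 siRNA. Compound libraries were below and siRNA libraries above their controls (-2.75 ± 0.09 and 0.43 ± 0.08, difference -3.19 ± 0.12, adjusted p = 1.22e-09), and RRM2 has an exon overlap on its strand. MCM5, of the replicative helicase, was opposite as well (-1.88 ± 0.08 and 0.35 ± 0.08, the latter with an adjusted p of 0.0571 by library totals). MCM4 and the ligase gene LIG1 were compound-specific (-2.06 ± 0.07 and -2.57 ± 0.09, with 0.04 ± 0.07 and 0.15 ± 0.08 for the siRNA). The 9 opposite genes of the list became 3 by library totals, where 3 were higher and 4 lower with the siRNA, and the difference was lower in 40. Of all 17717 genes, 902 were higher and 2800 lower with the siRNA by that scaling, and the difference was lower in 7283.

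The polymerase clamp gene PCNA and the helicase cofactor gene GINS2, picked after their values were seen, are shown with their promoters because both are opposite and carry E2F letters, for the factor family that drives S-phase genes. PCNA stood at 207, 241 and 206 CPM with vehicle, 43.8, 38.2 and 36.0 with anticarin-beta, 63.3, 81.0 and 77.2 with control siRNA and 93.5, 96.8 and 96.1 with CCT4 siRNA. GINS2 stood at 19.3, 21.6 and 20.6 CPM with vehicle, 6.21, 4.71 and 5.77 with anticarin-beta, 6.53, 8.37 and 8.23 with control siRNA and 11.2, 11.1 and 15.0 with CCT4 siRNA. The siRNA rise of PCNA was 0.37 ± 0.10 (adjusted p = 0.0249, and 0.118 by library totals) and that of GINS2 0.69 ± 0.15 (adjusted p = 0.00874). For PCNA the call did not hold on leaving out replicate 1 of control siRNA or any 1 CCT4 siRNA library (adjusted p from 0.0537 to 0.0925). The E2F letters, TTTGGCGC or TTTCCCGC on either strand, are in capitals and begin 59 bases before the start of PCNA and 31 bases before that of GINS2, where they read as the reverse complement.
PCNA, chr20:5126653-5126712, minus strand: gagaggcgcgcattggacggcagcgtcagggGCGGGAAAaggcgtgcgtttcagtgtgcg
GINS2, chr16:85688965-85689024, minus strand: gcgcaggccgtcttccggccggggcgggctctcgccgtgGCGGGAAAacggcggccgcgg

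These letters stood in 6.87% of the 262 matched promoters of opposite genes that were lower with the compound, in 3.63% of 2037 compound-specific lower promoters, in 2.46% of 244 promoters of the reverse class and in 2.89% of all. Promoter GC content was 66.6% in the class and 63.8% over all.

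Among 31 mitotic genes the median was -0.10 with the compound and 0.01 with the siRNA. Of them, 11 were lower and 5 higher with the compound, beside 38.0% and 34.9% of all genes, and 1 was higher and none lower with the siRNA. The difference was lower in 10 and higher in 2, beside 32.4% and 27.5% of all, with ESPL1, of the protease separase, at -1.82 ± 0.17 and the topoisomerase gene TOP2A at -1.06 ± 0.14. By library totals the counts were 0 higher and 20 lower with the compound, 0 and 2 with the siRNA, and 0 and 14 for the difference. CENPM, a centromere gene outside that list, was opposite by equal amounts: CENPM stood at 20.8, 19.2 and 16.4 CPM with vehicle, 8.97, 8.96 and 10.3 with anticarin-beta, 8.20, 8.81 and 9.54 with control siRNA and 17.2, 18.0 and 17.9 with CCT4 siRNA. The log2 fold changes were -0.995 ± 0.12 and 0.999 ± 0.12, and the libraries of each experiment did not overlap. Replication-dependent histone genes were higher with the compound throughout and with the siRNA in part. All 16 of the 16 tested were higher with the compound and 9 with the siRNA, and the difference was higher in 15 (medians 3.26, 0.60 and 2.82). HIST1H4H stood at 1.71, 2.77 and 2.46 CPM with vehicle, 96.0, 92.4 and 97.2 with anticarin-beta, 5.38, 5.71 and 5.55 with control siRNA and 8.11, 7.53 and 8.04 with CCT4 siRNA. HIST1H2BG rose with both and further with the compound (5.34 ± 0.17 against 1.80 ± 0.13). Levels in vehicle libraries were low, with a median of 1.76 CPM over the list. Histone genes are near-identical copies that usually lack a poly(A) tail, so their counts are uncertain.

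MAPK feedback genes encode phosphatases and Sprouty proteins that damp ERK signalling. With the compound 18 of 20 were higher, beside 34.9% of all genes. With the siRNA 6 were higher and 1 lower, beside 10.7% and 9.04% of all. The difference was higher in 16 and lower in none, beside 27.5% and 32.4% of all. By library totals there were 16 higher and 2 lower with the compound, 6 and 3 with the siRNA, and 16 and 1 for the difference. SPRY2 stood at 4.63, 4.46 and 4.44 CPM with vehicle, 65.2, 76.0 and 73.9 with anticarin-beta, 23.5, 23.8 and 22.2 with control siRNA and 25.6, 28.1 and 28.1 with CCT4 siRNA. The compound libraries were the highest of the 12, the siRNA interval was 0.05 to 0.41, and the difference was 3.75 ± 0.12 (adjusted p = 5.20e-10). DUSP6 stood at 12.4, 12.6 and 11.9 CPM with vehicle, 108, 92.9 and 93.9 with anticarin-beta, 112, 109 and 113 with control siRNA and 128, 122 and 121 with CCT4 siRNA. Here the control siRNA libraries were above the compound libraries, and vehicle was the lowest group; the difference was 2.85 ± 0.10. DUSP5 and SPRY4 were shared higher, at 3.85 and 2.81 with the compound and 0.44 and 0.66 with the siRNA.

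YAP is the coactivator that the Hippo kinases restrain. Of 19 of its targets, 18 were higher with the compound, beside 34.9% of all genes. With the siRNA 6 were higher and 1 lower, beside 10.7% and 9.04% of all. The difference was higher in 17 and lower in none, beside 27.5% and 32.4% of all. By library totals there were 16 higher and 1 lower with the compound, 3 and 2 with the siRNA, and 16 and 1 for the difference. DLC1 stood at 68.2, 57.8 and 60.6 CPM with vehicle, 888, 914 and 911 with anticarin-beta, 92.6, 90.8 and 92.6 with control siRNA and 96.0, 103 and 99.8 with CCT4 siRNA. This RhoGAP gene was compound-specific, and the siRNA-experiment libraries lay above vehicle and far below the compound libraries (3.86 ± 0.07 against 0.11 ± 0.07). The Hippo kinase gene LATS2 rose by 4.03 ± 0.07 with the compound and 0.47 ± 0.07 with the siRNA, and ARHGEF17 and NT5E were compound-specific (2.24 and 1.91). The matrix gene THBS1 was shared higher, at 3.95 ± 0.09 with the compound and 0.40 ± 0.09 with the siRNA.

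STAT3, the transcription factor downstream of IL-6 family cytokines, is represented by 19 tested targets. Of these, 10 were higher and 4 lower with the compound, 8 and 0 with the siRNA, and the difference was higher in 8 and lower in 5. Over all genes the shares were 34.9% and 38.0%, 10.7% and 9.04%, and 27.5% and 32.4% in the same order. By library totals the target counts were 9 higher and 8 lower with the compound, 6 and 2 with the siRNA, and 5 and 7 for the difference. SOCS3, the feedback inhibitor of that pathway, was opposite: SOCS3 stood at 78.0, 68.9 and 69.2 CPM with vehicle, 33.9, 32.1 and 27.7 with anticarin-beta, 58.4, 58.8 and 61.1 with control siRNA and 99.3, 98.9 and 89.2 with CCT4 siRNA. Compound libraries were below and siRNA libraries above every control library of their experiment (-1.21 ± 0.09 and 0.69 ± 0.09, difference -1.89 ± 0.12, adjusted p = 5.80e-08). CEBPD, a transcription factor gene singled out after its values were seen, had the same pattern (-0.74 ± 0.09 and 0.91 ± 0.09). The survival gene MCL1 was shared higher (2.35 and 0.25), the latter with an adjusted p of 0.0146 and 0.201 by library totals; the call did not hold on leaving out replicate 1 of control siRNA or replicate 1 or 3 of CCT4 siRNA (adjusted p from 0.0533 to 0.0669). BCL2L1 was compound-specific higher (1.91 against -0.13).

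In the integrated stress response ATF4 raises amino-acid and stress genes after phosphorylation of eIF2. Of 25 genes, 15 were higher and 8 lower with the compound, 8 higher and 3 lower with the siRNA, and 7 were shared higher. All genes had shares of 34.9% and 38.0% with the compound, 10.7% and 9.04% with the siRNA, and 6.76% shared higher. The lower counts of the list lie near these shares. By library totals the counts were 13 higher and 9 lower with the compound, 4 and 7 with the siRNA, and 12 and 7 for the difference. PPP1R15A stood at 59.9, 60.6 and 58.8 CPM with vehicle, 1016, 998 and 991 with anticarin-beta, 167, 162 and 153 with control siRNA and 502, 466 and 462 with CCT4 siRNA. This phosphatase subunit gene, which reverses eIF2 phosphorylation, rose by 4.07 ± 0.06 and 1.57 ± 0.06, and the groups did not overlap. NUPR1 rose mainly with the compound (2.80 ± 0.06 against 0.24 ± 0.06), as did ATF4 itself (1.42 ± 0.05 against 0.21 ± 0.05); both siRNA calls were lost by library totals (0.213 and 0.268). TRIB3, an ATF4 target taken after its values were seen, was lower in both (-0.44 ± 0.13 and -0.47 ± 0.13), and for the siRNA the call did not hold on leaving out replicate 2 or 3 of control siRNA or replicate 2 or 3 of CCT4 siRNA (adjusted p from 0.0573 to 0.0823).

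CHAC1, a glutathione-degrading enzyme gene of this pathway, was opposite: CHAC1 stood at 1.81, 2.90 and 2.73 CPM with vehicle, 7.71, 5.27 and 7.36 with anticarin-beta, 17.8, 18.3 and 17.8 with control siRNA and 11.3, 11.3 and 5.27 with CCT4 siRNA. Vehicle libraries were the lowest and control siRNA libraries the highest of the 12, so the compound libraries were still below control siRNA. The responses were 1.46 ± 0.29 and -0.95 ± 0.25 (difference 2.40 ± 0.38, adjusted p = 0.000148). The siRNA call had an adjusted p of 0.0212, and the call did not hold on leaving out replicate 1 or 2 of control siRNA (adjusted p from 0.0537 to 0.0574). Its promoter holds the C/EBP-ATF letters TGATGCAA, read here as the reverse complement and in capitals, 209 bases before the start. They occur in 0.394% of all matched promoters.
CHAC1, chr15:40953241-40953291, plus strand: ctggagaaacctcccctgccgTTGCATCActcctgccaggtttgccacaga

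Circadian clock genes form a transcriptional loop in which period and cryptochrome proteins repress their own activators. Of 16, 13 were higher with the compound, beside 34.9% of all genes. With the siRNA 4 were higher and 2 lower, beside 10.7% and 9.04% of all. The difference was higher in 15 and lower in 1, beside 27.5% and 32.4% of all. By library totals there were 13 higher and 2 lower with the compound, 2 and 3 with the siRNA, and 12 and 1 for the difference. The cryptochrome genes parted. CRY2 stood at 11.3, 11.6 and 12.4 CPM with vehicle, 54.8, 61.2 and 62.4 with anticarin-beta, 15.4, 15.0 and 16.4 with control siRNA and 7.78, 7.40 and 7.97 with CCT4 siRNA. CRY2 rose by 2.34 ± 0.09 with the compound and fell with the siRNA (-1.02 ± 0.09), a difference of 3.35 ± 0.12 (adjusted p = 1.19e-09) with no overlap in either experiment. CRY1 stood at 16.2, 14.2 and 16.3 CPM with vehicle, 319, 295 and 326 with anticarin-beta, 22.6, 21.4 and 20.1 with control siRNA and 22.6, 24.9 and 24.9 with CCT4 siRNA. CRY1 was compound-specific, with an siRNA response of 0.17 ± 0.08. NR1D1 and PER1 were shared higher (4.36 and 3.68 against 0.77 and 0.56), from vehicle means of 13.1 and 11.2 CPM and control siRNA means of 89.7 and 47.9 CPM.

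Other opposite genes that were higher with the compound include the kinase gene CLK1, which regulates splicing factors. CLK1 stood at 29.5, 33.7 and 31.8 CPM with vehicle, 125, 119 and 129 with anticarin-beta, 90.1, 98.2 and 87.1 with control siRNA and 53.6, 58.3 and 55.7 with CCT4 siRNA. The compound raised it by 1.98 ± 0.07 and the siRNA libraries were all lower (-0.72 ± 0.07). The zinc exporter gene SLC30A1 and the metal-sensing factor gene MTF1 were opposite too, at 2.34 ± 0.06 and 1.14 ± 0.09 with the compound and -0.36 ± 0.06 and -0.44 ± 0.09 with the siRNA. The metallothionein genes, which MTF1 drives, were not opposite: MT1X was lower in both (-0.78 and -0.92), MT1M had a difference of -2.34 ± 0.36 and MT1E of -0.67 ± 0.19, and the copies of this family are similar enough to be uncertain. ZNF699 went from 6.54 to 18.7 CPM with the compound and from 15.0 to 7.24 CPM with the siRNA, so each treated mean lay near the other experiment's control mean. SGK223 rose by 1.81 ± 0.12 and fell with the siRNA (-1.04 ± 0.14). NIPA1, with exon overlaps, had 2.57 ± 0.26 and -1.21 ± 0.25. A gene listed with the spreadsheet-altered symbol 1-Mar, whose identifier is that of MARCHF1, had 1.62 ± 0.15 and -0.96 ± 0.16.

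The reverse class was led by MSC, a helix-loop-helix repressor gene. MSC stood at 31.9, 39.6 and 35.5 CPM with vehicle, 4.36, 2.77 and 4.02 with anticarin-beta, 47.5, 46.1 and 50.1 with control siRNA and 116, 111 and 112 with CCT4 siRNA. The compound libraries fell below every other library and the siRNA libraries exceeded every control, with -3.25 ± 0.14 and 1.24 ± 0.11 and a difference of -4.49 ± 0.18 (adjusted p = 1.42e-09). DRAXIN, of an axon guidance protein, went from 5.68 to 0.953 CPM and from 3.16 to 5.81 CPM, and ZNF668 from 28.2 to 14.1 and from 20.9 to 36.3 CPM. GPR161 varied among control siRNA libraries (78.3, 45.2 and 35.2 CPM), and its siRNA rise of 0.76 ± 0.24 had an adjusted p of 0.0446; the call did not hold on leaving out replicate 2 or 3 of vehicle, replicate 1 of anticarin-beta, replicate 2 or 3 of control siRNA or any 1 CCT4 siRNA library (adjusted p from 0.0512 to 0.143). For the compound response of the pseudogene RPS2P55 (-0.78 ± 0.33), also taken by the naming rule, the call did not hold on leaving out replicate 1 or 2 of vehicle, any 1 anticarin-beta library, replicate 2 of control siRNA or any 1 CCT4 siRNA library (adjusted p from 0.0522 to 0.175). Its siRNA response (1.05 ± 0.32) had an adjusted p of 0.0663 by library totals and 0.0798 with each experiment fitted alone, and the call did not hold on leaving out replicate 2 of vehicle, any 1 anticarin-beta library, replicate 1 or 2 of control siRNA or any 1 CCT4 siRNA library (adjusted p from 0.0507 to 0.13). Cholesterol synthesis genes were partly of this class: the difference was lower in 16 of 23 and higher in 3, beside 32.4% and 27.5% of all genes. By library totals the genes higher with the siRNA fell from 7 to 3 and the opposite genes from 4 to 1. The difference was then lower in 16 and higher in 2. FDPS and PMVK were opposite (-1.19 ± 0.09 and 0.40 ± 0.09, -1.41 ± 0.10 and 0.37 ± 0.09), and MVK and FDFT1 compound-specific (-3.50 and -0.72). The siRNA call of PMVK did not hold by library totals (adjusted p = 0.0978). Nor did it hold on leaving out replicate 1 of control siRNA or replicate 2 or 3 of CCT4 siRNA (adjusted p from 0.0575 to 0.0721).

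Gene groups without counts so far are given by the number of called differences, beside 27.5% higher and 32.4% lower over all genes. By library totals the background is another: the difference was higher in 3724 and lower in 7283 of the 17717 genes tested. For growth and death control the difference was higher in 14 and lower in 2 of 24 p53 target genes (12 and 4 by library totals), higher in 13 and lower in 5 of 27 apoptosis genes (7 and 6 by library totals), and higher in 5 and lower in 10 of 20 G1 control genes (4 and 11 by library totals). For stress pathways it was higher in 7 and lower in 5 of 23 endoplasmic reticulum stress genes (6 and 8 by library totals), higher in 5 and lower in 12 of 22 NRF2 antioxidant genes (2 and 13 by library totals), higher in 3 and lower in 13 of 28 glycolysis and hypoxia genes (2 and 18 by library totals), and higher in 4 and lower in 14 of 28 interferon and RNA-sensing genes (1 and 21 by library totals). For RNA handling it was higher in 5 and lower in 6 of 13 RNA interference genes (3 and 7 by library totals), higher in 7 and lower in 9 of 26 SR and hnRNP splicing genes (6 and 13 by library totals), higher in 5 and lower in 5 of 13 nonsense-mediated decay genes (3 and 6 by library totals), and higher in 12 and lower in 11 of 36 translation factor genes (7 and 19 by library totals). For signalling and the cell surface it was higher in 11 and lower in 5 of 21 TGF-beta feedback genes (9 and 8 by library totals), higher in 9 and lower in 2 of 20 SRF and actin genes (6 and 4 by library totals), higher in 11 and lower in 2 of 17 cation transport genes (6 and 4 by library totals), and higher in 3 and lower in 2 of 6 metallothionein genes (2 and 2 by library totals). For the matrix and the lineage it was higher in 11 and lower in 4 of 25 collagen and matrix genes (7 and 8 by library totals), higher in 12 and lower in 1 of 16 invasion protease genes (10 and 2 by library totals), and higher in 4 and lower in 1 of 13 osteoblast genes (4 and 3 by library totals). Under both scalings p53 target, apoptosis, TGF-beta, SRF and actin, cation transport, invasion protease and osteoblast genes were called higher more often than lower. The reverse held for G1 control, NRF2, glycolysis, interferon, RNA interference and splicing genes, as it did over all genes. The RNA interference split, 5 higher and 6 lower by TMM and 3 and 7 by library totals, lay near that over all genes. There 45.9% of the called differences were higher by TMM and 33.8% by library totals. The splicing shares, 26.9% higher and 34.6% lower by TMM, lay near those over all genes.

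**Figure D4:**
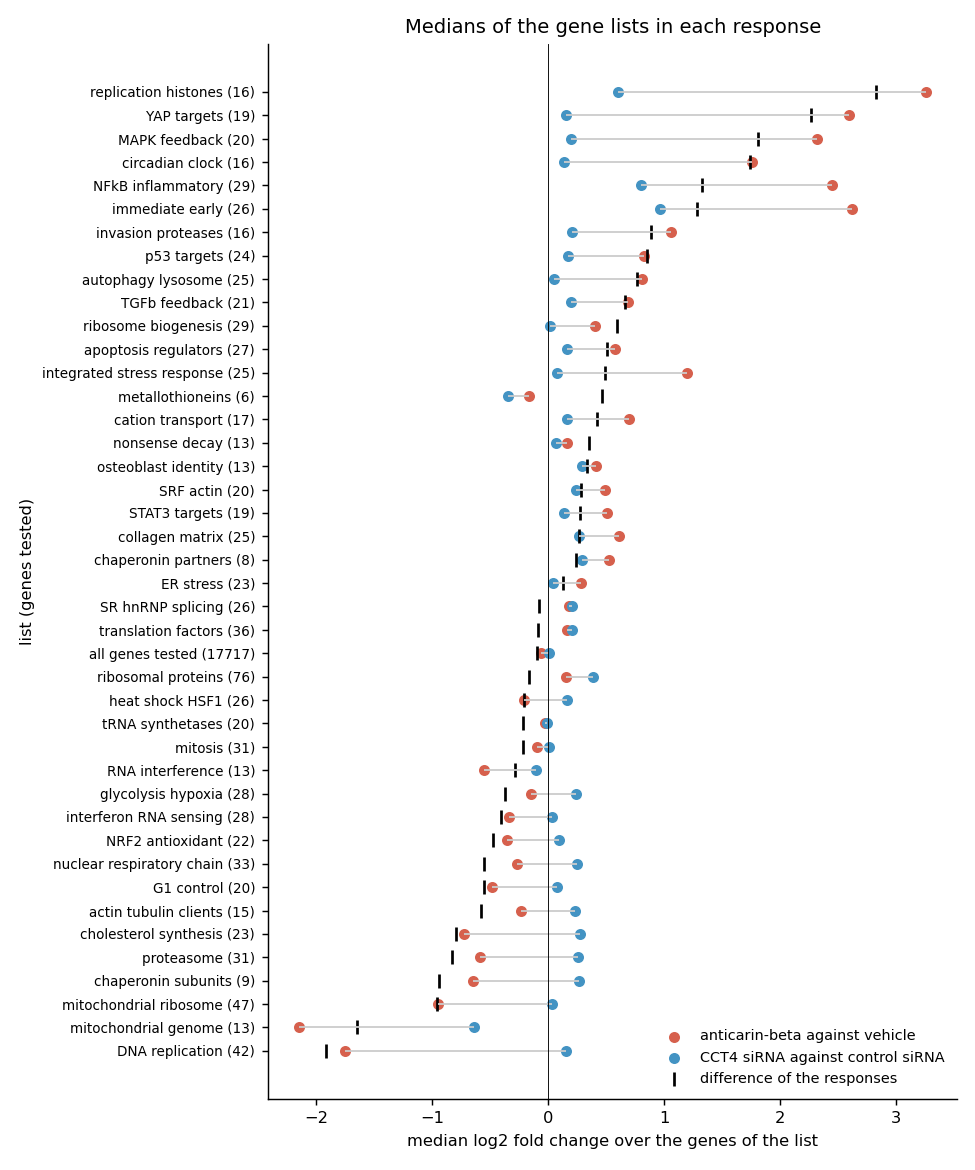
Median log2 fold change (horizontal axis) over the tested genes of each list with anticarin-beta against vehicle (red), with CCT4 siRNA against control siRNA (blue) and of the difference (black tick), ordered by the difference, with all 17717 genes for reference. Replication histones, YAP targets, MAPK feedback and clock genes lie highest, and DNA replication, the mitochondrial genome, mitochondrial ribosome, chaperonin and proteasome lowest.

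Named compound-specific genes that were higher include TSLP and KRTAP1-5, both low with vehicle. TSLP stood at 0.320, 0.241 and 0.107 CPM with vehicle, 28.6, 26.1 and 29.03 with anticarin-beta, 3.97, 2.79 and 2.68 with control siRNA and 2.75, 3.42 and 3.67 with CCT4 siRNA. This cytokine gene had few counts with vehicle, a compound response of 6.92 ± 0.36 and an siRNA response of 0.06 ± 0.20, and the siRNA-experiment libraries lay above vehicle. KRTAP1-5 stood at 3.14, 7.30 and 7.16 CPM with vehicle, 257, 257 and 272 with anticarin-beta, 76.8, 79.5 and 83.4 with control siRNA and 84.3, 80.9 and 84.2 with CCT4 siRNA. This keratin-associated protein gene was likewise low with vehicle, with a difference of 5.43 ± 0.27 (adjusted p = 9.09e-09). The histone gene HIST1H3D and the ribosomal pseudogenes RPSAP52 and RPL13AP20 were also among the 5 largest on the higher side, and all of them are uncertain as near copies of other genes.

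On the lower side, PATZ1, a zinc-finger repressor gene, and LINC01521 lie next to each other on chromosome 22 on opposite strands, and both fell with the compound alone. PATZ1 stood at 27.3, 25.9 and 24.8 CPM with vehicle, 0.755, 1.02 and 1.255 with anticarin-beta, 21.8, 22.7 and 27.97 with control siRNA and 30.0, 28.5 and 26.04 with CCT4 siRNA. The compound change was -4.68 ± 0.20 against 0.22 ± 0.12 with the siRNA, and LINC01521 fell from 7.39 to 0.171 CPM and stood at 3.84 and 4.16 CPM in the siRNA experiment. MNS1 fell from 16.3 to 0.486 CPM and stood at 6.01 and 6.26 CPM in the siRNA experiment, and SLX4IP fell from 7.41 to 0.142 CPM with 4.73 and 4.24 CPM there. FAM174B, with exon overlaps, went from 13.0 to 0.235 CPM with 17.4 and 17.1 CPM there.

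Among siRNA-specific genes, AHCYL2 stood at 14.4, 12.7 and 15.1 CPM with vehicle, 10.5, 12.6 and 13.8 with anticarin-beta, 11.7, 13.1 and 11.7 with control siRNA and 23.1, 23.1 and 21.7 with CCT4 siRNA. AHCYL2, of the S-adenosylhomocysteine hydrolase family, rose by 0.90 ± 0.12 with no overlap, against -0.20 ± 0.12 with the compound. SP8, a transcription factor gene, rose from 66.0, 55.6 and 57.0 to 140.3, 132 and 129 CPM with the siRNA and stood at 8.63, 6.27 and 6.74 and 6.71, 9.24 and 6.36 CPM in the compound experiment, well below. TOMM40, the pore of the mitochondrial import machinery, rose by 0.95 ± 0.16. FAM175B, a subunit gene of a deubiquitinating complex, was lower in the siRNA libraries alone: FAM175B stood at 27.2, 24.4 and 25.5 CPM with vehicle, 23.8, 24.1 and 26.5 with anticarin-beta, 27.0, 29.6 and 29.1 with control siRNA and 12.0, 11.01 and 14.5 with CCT4 siRNA. C6orf1 fell by 0.78 on the log2 scale and CGRRF1 by 0.91. The difference of CGRRF1 had an adjusted p of 0.0332; the call did not hold on leaving out replicate 1 or 2 of vehicle, replicate 3 of anticarin-beta, replicate 1 or 3 of control siRNA or replicate 1 or 2 of CCT4 siRNA (adjusted p from 0.0561 to 0.107), and for its siRNA response the call did not hold on leaving out replicate 1 or 3 of control siRNA or replicate 1 or 2 of CCT4 siRNA (adjusted p from 0.0522 to 0.0832). By library totals the difference of CGRRF1 had an adjusted p of 0.121.

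The autophagy and lysosome list was higher with the compound in 16 of 25 genes and with the siRNA in 5, beside 34.9% and 10.7% of all genes. The difference was higher in 15 and lower in 2, beside 27.5% and 32.4% of all. By library totals there were 13 higher and 9 lower with the compound, 3 and 5 with the siRNA, and 13 and 4 for the difference. The proton pump gene ATP6V1A was shared higher (1.80 and 0.35), LAMP2 and ATG3 compound-specific (1.45 and 1.78), and the autophagy receptor gene NBR1 opposite (1.17 ± 0.08 and -0.34 ± 0.08); for its siRNA response the call did not hold on leaving out replicate 1 of control siRNA or replicate 1 of CCT4 siRNA (adjusted p from 0.0548 to 0.0565). The classes differed in the structure of their genes, which the rules did not use. The median genomic span was 53.2 kb for opposite genes higher with the compound and 46.2 kb for compound-specific higher genes, against 24.8 kb over all and 14.0 and 12.3 kb for opposite genes lower with the compound and siRNA-specific higher genes. The median GC content of their longest transcripts was, in the same order, 43.7%, 44.8%, 48.6%, 53.6% and 52.7%. The part of length and GC content in the counts was not tested.

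**Figure D5:**
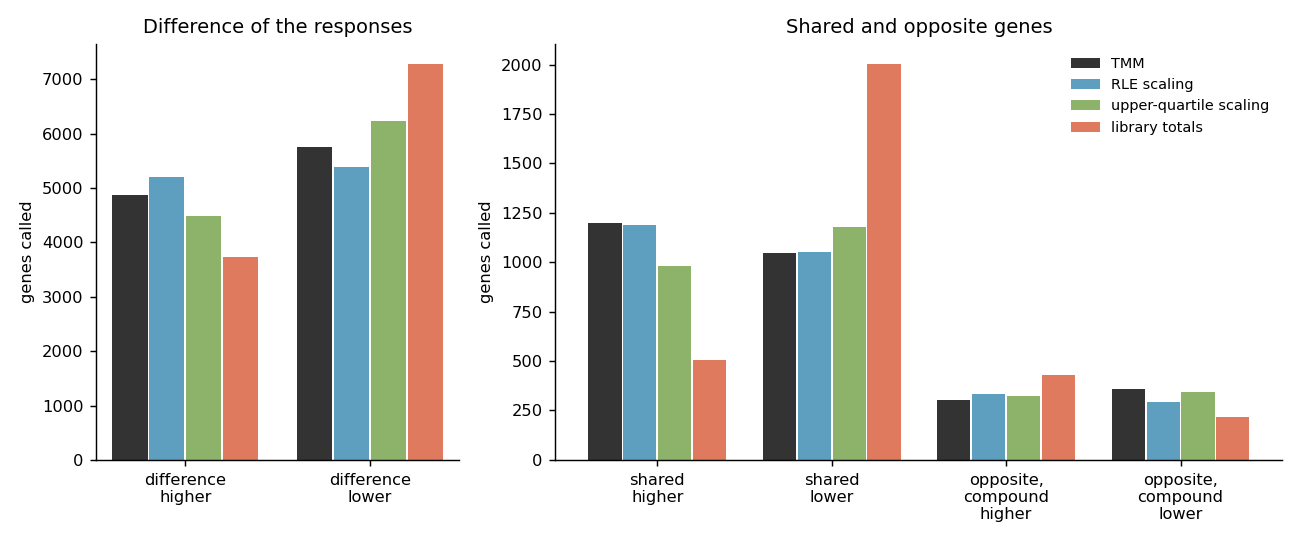
Number of genes called (vertical axes, from 0) for the difference of the responses and for the shared and opposite classes under TMM, RLE, upper-quartile and library-total scaling. With library totals the shared higher genes number 507 and the shared lower genes 2004, against 1197 and 1045 with TMM.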

How the data were processed

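RNA was sequenced from 12 libraries of MG63 cells, 3 in each of 4 groups, prepared with a stranded TruSeq kit per the labels' protocols. The deposited table holds raw read counts for 50868 genes. Tools named per the submitters' processing notes are featureCounts 1.5.0 of Subread, the aligner STAR 2.5.2a and the build hg38. The sources used here do not state the annotation release, the strand setting or how multi-mapping reads were treated. Gene coordinates and overlaps come from GENCODE 29, which held 98.5% of the IDs, and promoter stretches from RefSeq.

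Counts were fitted with edgeR 4.0.16 in R 4.3.3: genes kept by its expression filter (17717), TMM scaling, 1 mean per group, a quasi-likelihood test of each response and of their difference with 8 residual degrees of freedom, and Benjamini-Hochberg adjustment over all genes tested. Intervals are 95% intervals. Errors after ± are standard errors. A call is an adjusted p under 0.05. The fit was tested on simulated data. Fold changes use a prior count of 0.125. Intervals and floors cover counting error and replicate spread only.

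Genes are named by a rule: no overlap between treated and control libraries and 5 CPM or more on average where the gene is higher, then the 5 or 6 largest changes in each class, the chaperonin subunits, and in each list up to 4 members with the smallest p of the difference. The 41 gene lists hold 986 symbols, of which 952 were tested and 24 stand in more than 1 list. The members and lists were chosen with earlier results of these data known, and exceptions to the rule are named as such. Many genes that it takes are not described one by one and enter only the counts of their lists or classes. Alternatives were scaling by RLE, library totals or upper quartiles, limma-voom (limma 3.58.1), DESeq2 1.42.0, other filters, thresholds and bounds, each experiment fitted alone, a replicate block, and each library left out.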

Additional observations from a re-analysis of the deposited data

How the results depend on the processing

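The class counts depend on the threshold for a change and on the scaling. With library totals in place of TMM there were 507 shared higher, 2004 shared lower and 219 opposite genes lower with the compound, and the compound response of CCT5 became -0.029 (edgeR adjusted p = 0.755) and that of COL1A1 -0.007 (adjusted p = 0.935). At an adjusted p under 0.01 there were 574 shared higher, 437 shared lower, 128 opposite genes higher and 97 lower with the compound, 128 siRNA-specific genes and 11 with the larger siRNA response. With a threshold of 1.5-fold these numbers were 97, 33, 4, 3, 7 and 1. Without a low-count filter 17 shared genes had the larger siRNA response. The narrower bound on the other response gave 1688 compound-specific and 153 siRNA-specific genes.

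Replicate numbers did not pair the samples: same-numbered deviations had correlations of -0.035 to 0.025. With a replicate block there were 691 shared lower genes, 190 and 204 opposite genes higher and lower with the compound, and 20 with the larger siRNA response. With 1 library left out, shared lower genes ranged from 667 to 1156 and the opposite genes from 192 to 367 and from 184 to 414.

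Of 372 called values over 149 named genes, 277 kept direction and call under every alternative that gives the value, the 12 omissions included. The bounds on the other response give no call for a single value. Each experiment fitted alone gives none for a difference. The other 95 lost the call under the 1.5-fold threshold, 33 of them at an adjusted p under 0.01, 24 under another scaling, 25 with a library left out, 12 with the block and 12 with another tool or filter. The causes were not tested. Depth limits genes near the floor of 3 counts, where single counts move a value.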
